A study of Mus musculus with 12 samples.

Results

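The organic ion transporters examined were 9 genes chosen by name, namely Slc22a3, Slc22a5, Slc22a7, Slc22a18, Slc22a23, Slc22a27, Slc22a28, Slc22a30 and Slc47a1. Of these, 8 were among the 14188 genes of the table of protein-coding transcripts, with 13 listed transcripts of 29883 in all. Slc22a3 was not analysed here. The value of a gene was the sum of the FPKM of its listed transcripts. FPKM scales the sequenced fragments by the length of the transcript and by the depth of the library, so levels can be compared between genes of different length.

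The members of Slc22 are membrane carriers that move charged small molecules into or out of cells. In the liver they take up organic anions, organic cations and carnitine from the blood at the sinusoidal side of the hepatocyte, while Slc47a1 (also called Mate1) is a proton-coupled antiporter that releases organic cations at the canalicular side. Together with the Slco carriers and the Abc pumps they set which drugs, bile salts and metabolites pass through a hepatocyte.

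RNA was extracted from the liver of 12 male mice, 6 weeks old at the start, in 2 groups of 6. The strain is C57BL/8 in the sample labels and C57BL/6J in the methods of the study. Every mouse of both groups was injected intraperitoneally with CCl4, a solvent that injures hepatocytes and leads to fibrosis, mixed with corn oil (10 µl per g of body weight, 2 times a week), and was killed in week 8. The PZH group was given PZH (Pien-Tze-Huang, a traditional Chinese medicine) into the stomach every day at 0.25 mg per g, and the Control group was given double distilled water, so the comparison is PZH against water in CCl4-injured liver, and mice without CCl4 were not analysed here. The whole liver was sequenced, so fewer cells of a type and less RNA per cell cannot be told apart. The depth read from the smallest FPKM steps was 27.6 to 42.8 M fragments in the PZH mice and 26.8 to 35.6 M in the Control mice. The hepatocyte markers Alb, Apoa1, Ttr, Fgb and Tat were present in every mouse, at a summed FPKM of 39735 to 54747 in PZH and 23472 to 36499 in Control, ranges that did not overlap. Alb made up most of this sum (38437 ± 5471 FPKM in PZH and 24059 ± 4039 in Control, SD, n = 6). Alb and Ttr rose by 0.68 each on the log2 scale, Fgb fell by 1.17, with all 6 PZH mice below every Control mouse, and Apoa1 and Tat were not called by limma. The part of these differences in the results was not tested.

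Slc22a28 and Slc22a30 belong to a group of rodent organic anion transporters on chromosome 19, and they are near-identical copies. Their coding sequences of 1656 bases differed at 20 positions (98.8% identity), and the longest stretch without a difference was 431 bases. The 150-base coding stretch with the most differences (positions 627 to 776 from the start codon) is shown for both because these are the bases by which a read can be given to one gene or the other. Capitals mark the 5 bases that differ. The stretch crosses an intron and lies on the minus strand within chr19:8116791-8117029 for Slc22a28 and chr19:8386446-8386684 for Slc22a30 (GRCm38).
Slc22a28: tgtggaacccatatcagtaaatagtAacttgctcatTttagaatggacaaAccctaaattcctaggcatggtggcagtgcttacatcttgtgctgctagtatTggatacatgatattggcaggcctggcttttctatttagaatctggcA
Slc22a30: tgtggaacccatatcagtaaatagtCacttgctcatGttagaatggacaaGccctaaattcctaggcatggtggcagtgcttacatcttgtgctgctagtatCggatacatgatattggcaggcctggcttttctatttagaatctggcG

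The promoters of the pair were also alike. The RefSeq promoter windows of 300 bases (250 before and 50 after the start, GRCm38.p6) had 94.1% identity over 306 aligned columns with 6 substitutions, while the other pairs of members with a window had 34.0% to 49.9%. The other unmatched columns of the pair were at the ends of the alignment (TAACTC and AGGTTT), where the windows were offset. The 94.1% is therefore not comparable with the identity of the coding sequences. Both windows are shown because the pair differed in level between mice, as described below. Capitals mark bases that differ from, or have no partner in, the other promoter. The windows are chr19:8131933-8132232 for Slc22a28 and chr19:8405056-8405355 for Slc22a30, both on the minus strand.
Slc22a28 promoter: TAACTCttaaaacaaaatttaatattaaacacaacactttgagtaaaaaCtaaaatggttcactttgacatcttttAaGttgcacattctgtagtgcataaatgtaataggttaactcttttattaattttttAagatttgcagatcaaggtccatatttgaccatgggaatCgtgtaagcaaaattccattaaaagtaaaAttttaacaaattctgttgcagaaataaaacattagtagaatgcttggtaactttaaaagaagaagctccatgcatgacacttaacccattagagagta
Slc22a30 promoter: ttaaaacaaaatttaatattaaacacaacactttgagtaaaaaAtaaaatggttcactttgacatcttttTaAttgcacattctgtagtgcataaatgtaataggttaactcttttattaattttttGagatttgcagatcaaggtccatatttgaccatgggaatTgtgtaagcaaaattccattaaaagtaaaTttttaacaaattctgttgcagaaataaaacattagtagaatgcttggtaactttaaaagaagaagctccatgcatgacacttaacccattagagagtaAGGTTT

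Of the 150-base windows of the Slc22a28 transcript, 28.5% (528 of 1855) were also found in other annotated genes, with Slc22a30 sharing the most. For the 3 Slc22a30 transcripts it was 19.7% to 25.1%, with Slc22a28 sharing the most. A read of this length from such a window cannot be assigned to 1 gene by its own sequence, though its mate can lie outside such a window. These are shares of single-read windows and not of fragments. The split of FPKM between Slc22a28 and Slc22a30 is uncertain, to an extent not measured here. Slc22a5 shared 7.55% of its windows, most with Slc22a21, and Slc22a27 shared 0.599%, most with Slc22a29. Slc22a7, Slc22a18, Slc22a23 and Slc47a1 shared none with another annotated gene. No exon of a member overlapped an exon of another gene on either strand (0 overlaps).

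The 8 genes spanned a wide range of levels. In the Control group, Slc22a30 was the highest at 49.0 ± 9.70 FPKM (mean ± SD, n = 6), followed by Slc22a18 at 27.8 ± 4.77 and Slc22a23 at 21.0 ± 2.39. Then came Slc47a1 at 7.68 ± 5.11, Slc22a5 at 5.50 ± 1.29, Slc22a28 at 2.41 ± 5.67 and Slc22a7 at 1.55 ± 0.482. Slc22a27 was the lowest at 0.0656 ± 0.0477. In the PZH group the first 4 places were the same, and Slc22a28 and Slc22a7 stood above Slc22a5. Slc22a30 did not overlap Slc22a18 in either group. Slc22a18 and Slc22a23 overlapped in Control and not in PZH, and in both groups the ranges of Slc47a1, Slc22a5 and Slc22a28 overlapped.

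**Figure D1:**
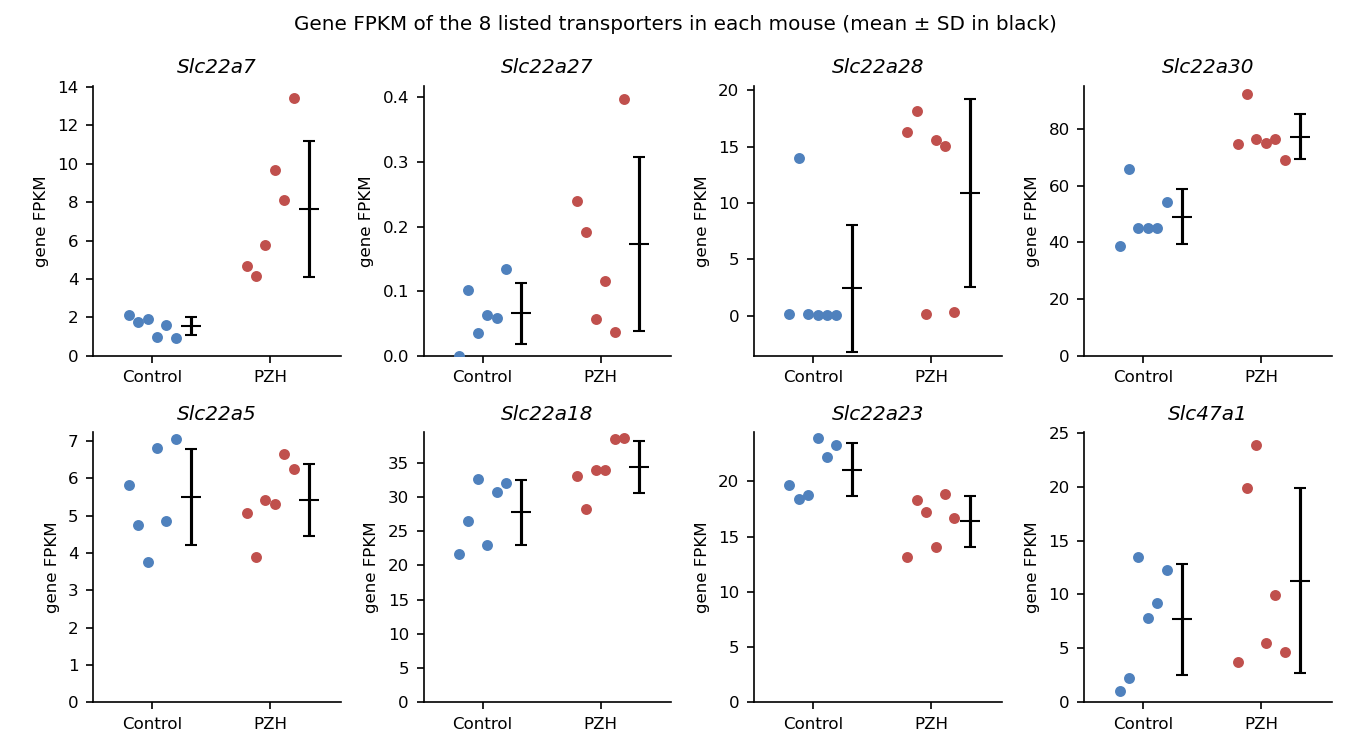
Gene FPKM (linear axis, a different scale in each panel) of the 8 listed transporters in the 6 Control mice (blue) and the 6 PZH mice (red), with mean ± SD in black. All 6 PZH mice lie above all 6 Control mice for Slc22a7 and Slc22a30, and Slc22a28 falls into mice at 14.0 FPKM or more and mice at 0.330 or less in both groups.

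By limma on log2(FPKM + 1), with Benjamini-Hochberg adjustment over all genes, Slc22a7, Slc22a30 and Slc22a18 rose in PZH and Slc22a23 fell, at an adjusted p below 0.05. That is 3 of 8 members higher, where 12.7% of all 14188 genes were higher, and 1 of 8 lower, where 32.1% of all genes were lower. By the criteria of the study, a 2-fold change with an unadjusted p below 0.05, 2 of 8 members rose (Slc22a7 and Slc22a28), against 1.52% of all genes, and 0 fell. The values of the 2 groups did not overlap for 2 of 8 members, Slc22a7 and Slc22a30, against 24.3% of all genes. The median log2 fold change of the 8 members was 0.41, beside -0.11 over all genes. The members were chosen with earlier results of these data known, so these shares are descriptions and not a test against all genes.

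The centre of the distribution bears on the smaller changes. After division by a median-ratio scale factor for each mouse, the median over all genes was -0.00, against -0.11 as deposited, and the split of calls over all genes went from 1798 higher and 4560 lower to 2807 higher and 2739 lower. Under this scaling Slc22a7 (1.82), Slc22a30 (0.85) and Slc22a18 (0.50) still rose, and Slc22a23 was no longer called (log2 fold change -0.16, limma adjusted p = 0.112). When every mouse was instead brought to the same summed FPKM, Slc22a7 and Slc22a30 rose, Slc22a23 fell and Slc22a18 was no longer called (0.27, adjusted p = 0.0722).

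**Figure D2:**
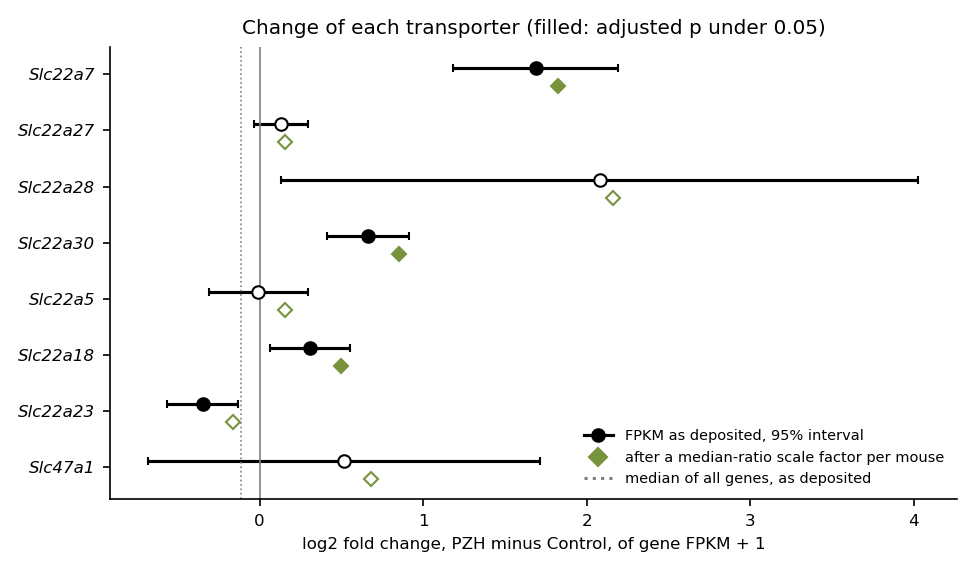
Log2 fold change of each transporter (PZH minus Control, on the log2(FPKM + 1) scale), with the deposited FPKM as black circles with 95% intervals and after a median-ratio scale factor as green diamonds, filled where the adjusted p is below 0.05. Slc22a7 and Slc22a30 stand right of 0 under both scalings, Slc22a23 is filled only as deposited, and Slc22a28 has the widest interval (0.13 to 4.03).

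Slc22a7 (Oat2, ENSMUSG00000067144, GRCm38 chr17:46432183-46438457, minus strand) is a hepatocyte carrier of organic anions and cyclic nucleotides. Its level was 4.14, 6.93 and 13.4 FPKM in PZH (lowest, median and highest mouse) and 0.920, 1.67 and 2.1 in Control. Every PZH mouse was above every Control mouse. The mean was 7.63 ± 3.53 FPKM against 1.55 ± 0.482 (n = 6 each), a ratio of 4.94. The log2 fold change was 1.69 (SE 0.23, 95% interval 1.18 to 2.19), with a limma adjusted p of 0.000131. It ran from 1.52 to 1.82 with each mouse left out. The PZH mice differed among themselves more than the Control mice did in FPKM, with a highest-to-lowest ratio of 3.24 against 2.29. Only ENSMUST00000087012, of 3 annotated transcripts, was analysed here. Gramd4 (r = 0.833) and Fam213a (r = 0.817) were the genes whose deviations from the group means over the 12 mice were most like those of Slc22a7, among 10947 genes with a mean FPKM of at least 1. Such r values, here and for the members below, are the highest of all genes searched over 12 mice. They were not tested against what such a search gives by chance, so they are descriptions.

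Slc22a30 (ENSMUSG00000052562, chr19:8335371-8405111, minus strand), an organic anion transporter known from rodents, had the highest FPKM of the 8. It stood at 69.1, 75.6 and 92.5 FPKM in PZH and 38.7, 45.1 and 66.0 in Control (lowest, median, highest), and the groups did not overlap. The highest Control mouse was Control 2. The ratio of means was 1.58 and the log2 fold change 0.66 (SE 0.12, 95% interval 0.41 to 0.91), with a limma adjusted p of 0.000581. With each mouse left out the log2 fold change was between 0.60 and 0.75.

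The 3 annotated transcripts of Slc22a30 were all listed, and they differ at their 3′ coding ends, which are shown because they set the coding sequences apart. Untranslated bases were not compared. The stretch of ENSMUST00000064507 lies within the genomic span of ENSMUST00000096269 (chr19:8335371-8405111), so its capitals need not be absent from that RNA. Each line is the last 90 coding bases, with bases that are coding only in that transcript in capitals (minus strand, GRCm38 chr19:8335764-8336754, chr19:8335667-8335756 and chr19:8344385-8344568 in this order, the first and the last crossing an intron).
ENSMUST00000096269: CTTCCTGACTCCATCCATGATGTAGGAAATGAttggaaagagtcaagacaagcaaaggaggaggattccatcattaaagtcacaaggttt
ENSMUST00000064507: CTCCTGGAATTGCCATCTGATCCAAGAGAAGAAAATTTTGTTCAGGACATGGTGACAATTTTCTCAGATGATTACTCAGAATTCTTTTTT
ENSMUST00000120540: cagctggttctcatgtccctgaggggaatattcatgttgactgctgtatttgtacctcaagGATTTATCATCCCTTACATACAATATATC

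Their coding lengths are 1656, 1440 and 1314 bases. ENSMUST00000096269 was at 39.8 ± 4.29 FPKM in PZH and 27.0 ± 4.70 in Control (SD, n = 6), without overlap, with a log2 fold change of 0.55 and a limma adjusted p of 0.00439 over all transcripts. ENSMUST00000120540, the model with the shortest coding sequence, was at 36.0 ± 5.67 and 21.0 ± 4.67 FPKM, with a log2 fold change of 0.76 and an adjusted p of 0.00261, and 5 of 6 PZH mice were above all Control mice. ENSMUST00000064507 was low, at 1.56 ± 0.634 and 1.09 ± 0.628 FPKM (log2 fold change 0.31, adjusted p = 0.339).

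The shares of Slc22a30 held by its transcripts differed little between the groups. ENSMUST00000120540 held 46.4% ± 3.85 of the gene FPKM in PZH and 42.6% ± 1.74 in Control, a difference of 3.77 percentage points (95% interval -0.00 to 7.55), with a limma adjusted p of 0.494. ENSMUST00000096269 held 51.5% ± 3.64 and 55.3% ± 2.57. Of the 9 transcripts of members with more than 1 listed transcript, 0 changed in share at an adjusted p below 0.05 and 0 at an unadjusted p below 0.05, where 0.332% of 22918 transcripts were called by limma at the adjusted p.

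Over all transcripts, 4 of the 13 listed for the members rose at an adjusted p below 0.05, where 5.73% of 29883 transcripts were higher, and 1 of 13 fell, where 14.0% were lower. The 4 were ENSMUST00000087012 of Slc22a7, the first and the last of the Slc22a30 transcripts above, and ENSMUST00000148671 of Slc47a1. The transcript that fell was ENSMUST00000148390 of Slc22a23.

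Slc22a28 (ENSMUSG00000063590, chr19:8062209-8131982, minus strand) was either well above 10 FPKM or close to 0. In the PZH group it was at 16.3, 18.2, 15.6 and 15.1 FPKM in PZH 1, 2, 4 and 5, and at 0.129 and 0.330 in PZH 3 and 6. In the Control group it was at 14.0 FPKM in Control 2 and between 0.00530 and 0.170 in the other 5 mice. For its transcript 1 fragment is worth 0.0117 to 0.0186 FPKM at these depths, so the lowest value is below that of 1 whole fragment. Thus 5 mice lay between 14.0 and 18.2 and 7 mice at or below 0.330, with no mouse between.

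The mean of Slc22a28 was 10.9 ± 8.35 FPKM in PZH and 2.41 ± 5.67 in Control (SD, n = 6), a ratio of 4.53. The log2 fold change was 2.08 (SE 0.90, 95% interval 0.13 to 4.03), with an unadjusted p of 0.0382 and an adjusted p of 0.0774 by limma. Without Control 2 it was 2.71 with an adjusted p of 0.0141. Without PZH 3 it was 2.61 (adjusted p = 0.0259), and without PZH 6 it was 2.56 (adjusted p = 0.0340). The 2-fold criterion was lost on leaving out any 1 of PZH 1, 2, 4 and 5 or of Control 1, 3, 4, 5 and 6. Its spread within groups was larger than that of 99.9% of the 10948 genes with a mean FPKM of at least 1.

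The next criterion was chosen after the values of Slc22a28 were seen. A 30-fold or larger spread within both groups, each with a mouse at 10 FPKM or more, was uncommon. Among genes with any mouse at that level it was found for 9 of 5047 (0.178%), including Slc22a28. The others were Rapgef4, Rpl23a, Ppia, Mup2, Mup12, Mup13, Gm20425 and Gm21887. Among genes with 1 listed transcript, such as Slc22a28, it was found for 6 of 1828 (0.328%), and among single transcripts for 141 of 5446 (2.59%).

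In the 2 mice that were highest for Slc22a28 within their group, Control 2 and PZH 2, Slc22a30 was also the highest of the group, at 66.0 and 92.5 FPKM. In PZH 3 and 6, where Slc22a28 was at 0.330 or less, Slc22a30 was at 76.4 and 69.1 FPKM, against 74.7 to 92.5 in the other 4 PZH mice. The deviations of both genes from their group means had r = 0.616 over 12 mice. These points share libraries and the sequence described above, and no member pair had a higher r.

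Because of the shared sequence, both genes were also added together, an alternative chosen after the data were seen. The sum was 88.2 ± 14.2 FPKM in PZH (69.4 to 110.6) and 51.5 ± 14.8 in Control (38.8 to 80.0). With the pair as 1 feature in the fit, the log2 fold change was 0.79 (SE 0.16, 95% interval 0.45 to 1.14) with a limma adjusted p of 0.00150. An exact permutation test of the difference of means gave a two-sided p of 0.00649 over 924 labellings. The groups overlapped, since Control 2 was above PZH 3 and 6, and 4 of 6 PZH mice were above every Control mouse.

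**Figure D3:**
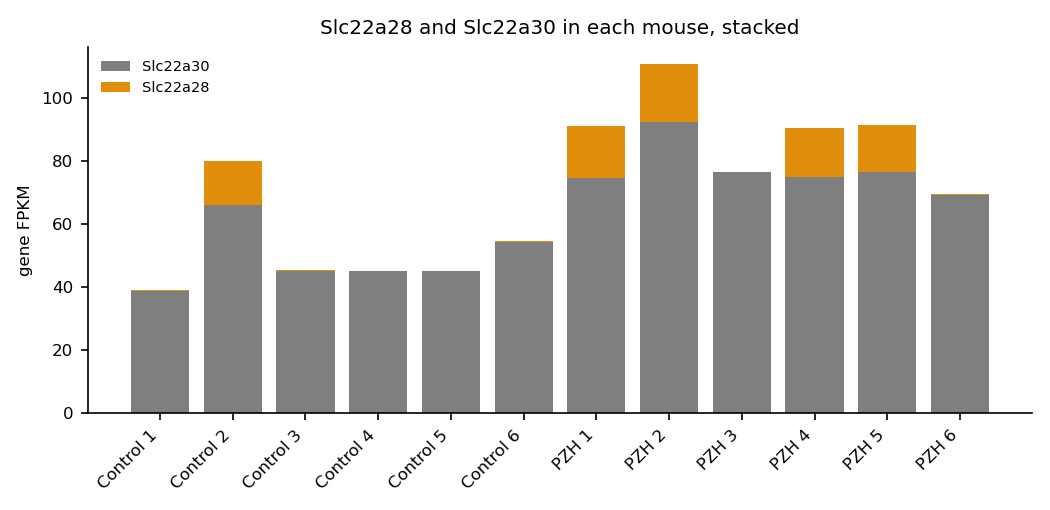
Gene FPKM of Slc22a30 (grey) and Slc22a28 (orange) stacked for each of the 12 mice (linear axis from 0). Slc22a28 is visible in Control 2 and in PZH 1, 2, 4 and 5, and Control 2 is the only Control mouse whose sum (80.0 FPKM) lies within the PZH range of 69.4 to 110.6.

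By the same measure of likeness over 12 mice, Knop1 (r = 0.874) and Hsd3b5 (r = 0.824), a hydroxysteroid dehydrogenase of male mouse liver, were nearest to Slc22a28. Fam57a (r = 0.929) and Slc1a4 (r = 0.884), a neutral amino acid carrier, were nearest to Slc22a30.

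Slc22a27 (ENSMUSG00000067656, chr19:7864388-7966027, minus strand) belongs to the same group of organic anion transporters, with 91.6% coding identity to Slc22a28 and to Slc22a30. It was nearly silent in these livers, at 0.0366, 0.154 and 0.397 FPKM in PZH and at 0, 0.0611 and 0.135 in Control (lowest, median, highest). The groups overlapped, with 3 of 6 PZH mice above all Control mice. The log2 fold change of 0.13 (95% interval -0.03 to 0.30, limma adjusted p = 0.179) is on the FPKM + 1 scale, which understates changes of low genes. With a pseudocount of 0.1 it was 0.63 and was not called either. Tmbim4 (r = 0.870) and Tlcd1 (r = 0.863) were nearest to it.

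Slc22a5 (Octn2, ENSMUSG00000018900, chr11:53864542-53891660, minus strand) takes up carnitine, which carries fatty acids into mitochondria, together with sodium. It was at 3.89, 5.36 and 6.64 FPKM in PZH and 3.75, 5.33 and 7.06 in Control, and the groups overlapped fully, with 0 PZH mice outside the Control range. The log2 fold change was -0.01 (95% interval -0.31 to 0.29), with a limma adjusted p of 0.972. It was 0.16 after the median-ratio scale factor, also not called. Txnl4a (r = 0.854) and Ifi27 (r = 0.845) were nearest to it.

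The partners of Slc22a5 in the handling of carnitine were higher in PZH. Of 7 genes in the list 6 were tested, and 6 of 6 rose at the adjusted p while 0 fell, with a median log2 fold change of 0.36. Over all genes 12.7% rose and 32.1% fell. Bbox1, the last enzyme of carnitine synthesis, was at 42.2 ± 8.69 FPKM in PZH and 13.6 ± 4.59 in Control (log2 fold change 1.61, limma adjusted p = 0.000102). Aldh9a1, another enzyme of that pathway, rose by 0.41 on the log2 scale (adjusted p = 0.00674). Cpt1a, which joins carnitine to fatty acids at the outer mitochondrial membrane, rose by 0.39 (adjusted p = 0.0351). All 6 also passed after the median-ratio scale factor, and with equal sums 3 of 6 did, not including Cpt1a (0.35, adjusted p = 0.0822). Whether these changes differed from that of Slc22a5 was not tested.

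Slc22a18 (ENSMUSG00000000154, chr7:143473736-143499334, plus strand) is an organic cation carrier gene of the imprinted Kcnq1 domain. It was at 28.3, 34.0 and 38.6 FPKM in PZH and 21.6, 28.6 and 32.6 in Control, with 5 of 6 PZH mice above every Control mouse. The mean was 34.4 ± 3.83 against 27.8 ± 4.77 FPKM, a ratio of 1.24. The log2 fold change was 0.31 (SE 0.11, 95% interval 0.06 to 0.56), with a limma adjusted p of 0.0425, close to the threshold. Leaving out any 1 of PZH 1, 3, 4, 5 and 6 or of Control 1, 2 and 4 ended the call, with log2 fold changes of 0.24 to 0.32 and adjusted p-values of 0.0537 to 0.0926. After the median-ratio scale factor the log2 fold change was 0.50 (adjusted p = 0.00428).

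Slc22a18 has 2 listed transcripts that start at different 5′ exons and have the same coding length of 1230 bases. ENSMUST00000105917, which starts at chr7:143475101, held 84.8% ± 1.5 of the gene FPKM in PZH and 86.1% ± 3.57 in Control. Its log2 fold change was 0.29 (adjusted p = 0.132), and that of ENSMUST00000052348 was 0.38 (adjusted p = 0.0755). The sum passed the threshold while neither transcript did, but genes and transcripts were adjusted over different numbers of tests. The unadjusted limma p was 0.0183 for the gene, 0.0382 for ENSMUST00000105917 and 0.0175 for ENSMUST00000052348. Agmat (r = 0.891) and Iah1 (r = 0.888) were nearest to the gene.

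Of the imprinted domains that hold Slc22a18 and Slc22a3, 7 of the 10 genes in the list were tested. Cdkn1c, a cell cycle inhibitor, rose by 0.48 on the log2 scale. Phlda2, the neighbour of Slc22a18, had a log2 fold change of -0.52 and Tssc4 of -0.63, and both fell, though Tssc4 was no longer called after the median-ratio scale factor (-0.47, adjusted p = 0.0831). Igf2r (-0.14), Kcnq1 (0.09), Nap1l4 (-0.05) and Cd81 (-0.27) were not called. The median log2 fold change of these genes was -0.14, beside -0.11 over all genes.

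Slc22a23 (ENSMUSG00000038267, chr13:34179158-34345182, minus strand), a carrier without an established substrate, was the member that fell. It was at 13.2, 16.9 and 18.9 FPKM in PZH and 18.4, 20.9 and 23.9 in Control. All but 1 of the PZH mice were below every Control mouse. The ratio of means was 0.779 and the log2 fold change -0.35 (SE 0.10, 95% interval -0.56 to -0.13), with a limma adjusted p of 0.0136. This is relative to a median of -0.11 over all genes, and the call ended under the median-ratio scale factor, as given above. ENSMUST00000148390, an annotated model incomplete at its 5′ end, held 99.5% ± 0.648 of the FPKM in PZH and 99.3% ± 0.674 in Control. The complete model ENSMUST00000040336 was between 0.00720 and 0.375 FPKM over the 12 mice. Rsbn1 and Fbxl19 were nearest to the gene (r = 0.964 for each).

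Slc47a1 (Mate1, ENSMUSG00000010122, chr11:61343401-61378345, minus strand) varied widely among mice of 1 group. It was at 3.74, 7.71 and 23.9 FPKM in PZH and 1.05, 8.55 and 13.5 in Control, and the groups overlapped. The log2 fold change was 0.52 (SE 0.55, 95% interval -0.68 to 1.72), with a limma adjusted p of 0.477, so a change of more than 2-fold upward is inside the interval. Its spread within groups was above that of 99.4% of genes with a mean FPKM of at least 1. Spi1, a myeloid transcription factor (r = 0.973), and Comtd1 (r = 0.910) were nearest to it.

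The 2 listed transcripts of Slc47a1 begin their coding sequence in different exons. Their first 60 coding bases are shown because the coding start differs, with capitals for bases that are coding only in that transcript (minus strand, chr11:61377988-61378047 and chr11:61373382-61373441). Of the shorter model 0 of the bases shown are coding only there, so its line is also coding sequence of the full model. Untranslated bases were not compared.
ENSMUST00000010267: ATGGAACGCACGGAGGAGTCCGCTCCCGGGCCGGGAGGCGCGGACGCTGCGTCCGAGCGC
ENSMUST00000148671: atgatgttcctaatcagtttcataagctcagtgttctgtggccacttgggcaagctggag

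ENSMUST00000010267 has 17 exons and 1701 coding bases. ENSMUST00000148671 is a model of 9 exons and 826 bases that is incomplete at its 3′ end. The full model was at 0.784, 0.440 and 1.70 FPKM in PZH 1, 4 and 6 and at 0.232 and 0.386 in Control 1 and 2, while it was at 7.65 to 22.8 in the other 7 mice. No mouse lay between 1.70 and 7.65. Low and high mice were thus found in both groups, and the log2 fold change was 0.04 (95% interval -1.93 to 2.01, adjusted p = 0.984). The shorter model was at 0.970, 2.14 and 5.03 FPKM in PZH and 0.208, 0.425 and 1.86 in Control, with 3 of 6 PZH mice (1, 4 and 6) above every Control mouse. Its log2 fold change was 0.97 (SE 0.30, 95% interval 0.31 to 1.63), with a limma adjusted p of 0.0409. This call ended without any 1 of PZH 1, 4 and 6 or Control 1, 3, 4, 5 and 6, at log2 fold changes of 0.78 to 1.01 and adjusted p-values of 0.0592 to 0.0862. The share of the gene held by the shorter model was 42.9% ± 39.9 in PZH and 28.8% ± 40.0 in Control (difference 14.2 percentage points, 95% interval -34.6 to 62.9, adjusted p = 0.875). This share was 63.8% to 91.9% in PZH 1, 4 and 6 and Control 1 and 2, and 2.65% to 13.3% in the other 7 mice. In Control too the shorter model was highest where the full model was low, at 0.816 and 1.86 FPKM in Control 1 and 2. The other Control mice had 0.208 to 0.482. How reads were divided between these 2 overlapping models was not tested.

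**Figure D4:**
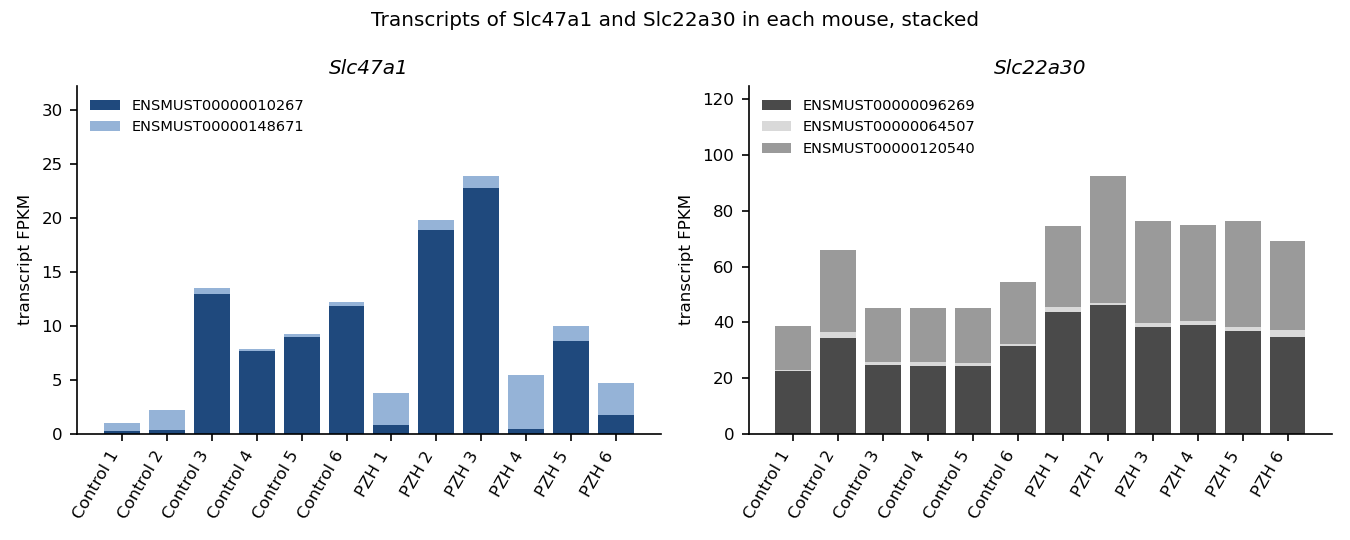
FPKM of the listed transcripts of Slc47a1 (left) and Slc22a30 (right), stacked for each of the 12 mice (linear axes from 0). For Slc47a1, ENSMUST00000010267 is at 1.70 or less in Control 1 and 2 and PZH 1, 4 and 6, whereas both main transcripts of Slc22a30 are present in every mouse.

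Between members, the deviations from the group means had r from -0.464 (Slc22a7 and Slc47a1) to 0.616 (Slc22a28 and Slc22a30) over 12 mice. The members that rose did not share 1 pattern among mice, with r = -0.407 for Slc22a7 and Slc22a30. These are descriptions over mice that share libraries.

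Of 17 other genes of both families, 4 were listed, with a median log2 fold change of -0.01. Over all genes 12.7% rose and 32.1% fell at the adjusted p. By limma 0 of the 4 rose, also at an unadjusted p below 0.05, and 1 fell. This was Slc22a15, at 0.815 ± 0.155 FPKM in PZH and 1.11 ± 0.218 in Control, which fell by 0.21 (adjusted p = 0.0449) and was no longer called after the median-ratio scale factor (-0.12, adjusted p = 0.25).

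Among the 15 other drug and bile transporters of the hepatocyte, 9 rose, 1 fell and 5 were not called, where 12.7% of all genes rose and 32.1% fell. The median log2 fold change of the 15 was 0.40, beside 0.41 for the 8 members. The highest were Slco1a4 (2.06), Slco1b2 (1.56) and Slc10a1 (1.51), which take up organic anions and bile salts at the sinusoidal side. Slco1b2 was at 320.2 ± 56.1 FPKM in PZH and 111.3 ± 32.2 in Control, and Slc10a1 at 155.4 ± 20.6 and 55.2 ± 15.9. The gene that fell was Abcc4, an efflux pump, with a log2 fold change of -0.99 (adjusted p = 0.00753). Counts of 9 higher and 1 lower were also found with the median-ratio scale factor and with equal sums. Slc22a7, with a log2 fold change of 1.69, had a lower mean FPKM than Slco1b2 and Slc10a1 in both groups.

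Of the 9 genes for scaffolds and nuclear regulators of hepatocyte transporters, 7 rose, 1 fell and 1 was not called. Over all genes 12.7% rose and 32.1% fell. The median log2 fold change of the 9 was 0.74. The nuclear receptors Nr1i3 (1.15), Nr1h4 (0.98) and Ppara (0.92) had the highest log2 fold changes. Hnf4a, a main hepatocyte transcription factor, fell by 0.30 (adjusted p = 0.00937) and was no longer called after the median-ratio scale factor (-0.11, adjusted p = 0.25).

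**Figure D5:**
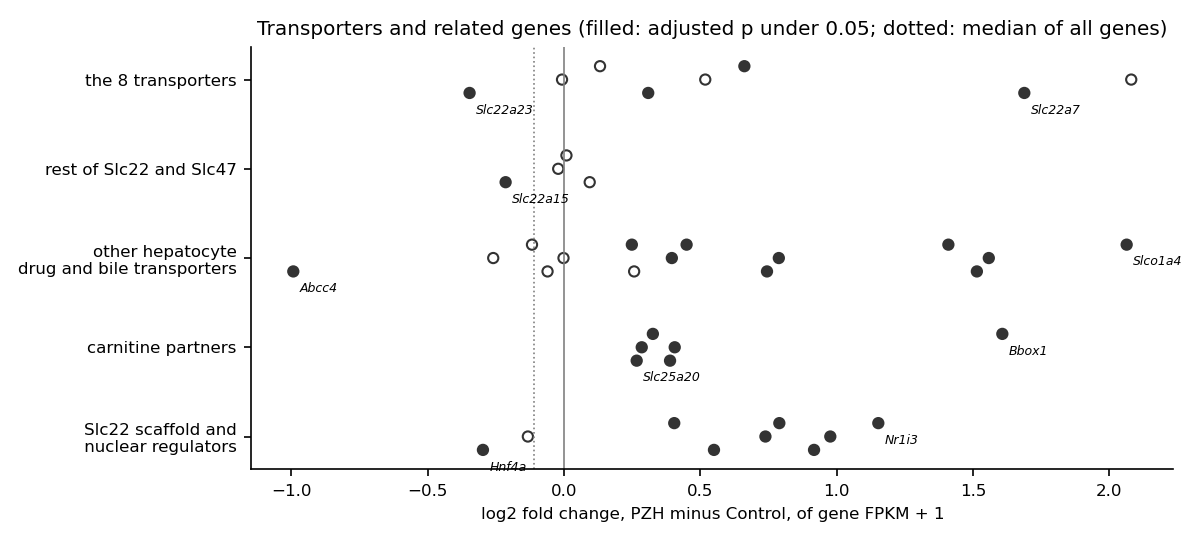
Log2 fold change (PZH minus Control, log2(FPKM + 1)) of the 8 transporters and of the genes of 4 related lists, 1 point a gene, filled where the adjusted p is below 0.05, with the highest and lowest called gene of each list named. All 6 carnitine partners are filled and right of 0, and Abcc4 is the lowest point.

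Markers of other liver cells were counted beside these results. At the same threshold 12.7% of all genes were higher and 32.1% lower. Of the cholangiocyte markers 0 of 5 rose and 1 fell (summed FPKM 66.9 to 133.3 in PZH and 96.9 to 161.0 in Control), and of the stellate cell and myofibroblast markers 1 of 8 rose and 2 fell (283.7 to 366.1 and 220.3 to 342.1). The cholangiocyte marker that fell was Sox9 (log2 fold change -1.64). Most of the cholangiocyte sum was Spp1 (mean 94.1 FPKM in PZH and 120.8 in Control), which was not called. Of the endothelial markers 0 of 5 rose and 2 fell (38.7 to 58.4 and 53.3 to 61.4). Of the Kupffer cell and macrophage markers 3 of 6 rose and 1 fell (285.7 to 450.5 and 246.1 to 361.9), and of the lymphocyte and neutrophil markers 0 of 6 were called by limma (12.9 to 126.4 and 17.1 to 61.3). The highest of the last sums was that of PZH 3, where S100a8 was at 76.0 FPKM and S100a9 at 40.6. After the median-ratio scale factor 4 of the hepatocyte, 4 of the stellate cell, 4 of the macrophage, 1 of the cholangiocyte, 1 of the endothelial and 1 of the lymphocyte and neutrophil markers were higher. Lower were 2 of the stellate cell, 1 of the hepatocyte, 1 of the cholangiocyte and 1 of the endothelial markers. Over all 14188 genes, 2807 were higher and 2739 lower under this scaling. The part of these markers in the changes of the transporters was not tested.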

How the data were processed

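Liver RNA of 12 mice (6 PZH, 6 Control) was depleted of ribosomal RNA by the authors, made into stranded libraries and sequenced with paired reads of 150 bases. Reads were trimmed with Trimmomatic, mapped to GRCm38 with HISAT2 and assembled with StringTie on Ensembl release 95. The deposited values were the FPKM of each transcript. How reads shared by near-identical genes were divided is not given in the sources used here. The 1432 lncRNA transcripts were not used.

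Transcripts were assigned to genes with GENCODE M21, and 29876 of 29883 matched. The FPKM were summed per gene, put on the log2(FPKM + 1) scale without a filter and compared with limma 3.58.1 (R 4.3.3, Benjamini-Hochberg adjustment over all genes or transcripts), which was tested on simulated data. Transcript shares were fitted in genes with a mean of at least 0.1 FPKM. Intervals are 95%. The limma p-values set the difference between the groups against the spread between mice within groups, moderated over all genes, transcripts or shares. Depth came from the smallest FPKM steps, and as counts were not recovered no counting interval is given.

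The members and lists were chosen with earlier results of these data known. All members were named, with up to 3 called genes of each other list, all tested genes of the imprinted list, and the 2 genes most like each member. All hepatocyte markers were named too, and other markers where they made up much of a sum. The fits were repeated with only genes of mean FPKM 1 or more, with 0.1 in place of 1 as pseudocount, with a median-ratio scale factor, equal sums, a mean-variance trend, a replicate block or the highest transcript per gene, and without each mouse in turn. Sequences were aligned with Biopython 1.88, and promoters are from RefSeq for 6 members. A further gene of these families was left out of the lists and is not reported here.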

Additional observations from a re-analysis of the deposited data

Results flagged for a closer look

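Slc22a28 in the Control group was flagged for Control 2, which stood far from the other 5 mice at 14.0 FPKM, with a gap to the next mouse of 0.988 of the group's range, above the 95% critical value of Dixon's test. Slc22a30 in the PZH group was flagged for PZH 2 at 92.5 FPKM, with a gap of 0.689 of its range. These were 2 of the 16 sets of 6 values examined, and chance flags about 1 in 20.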

How the results depend on the processing

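No member gene or transcript reversed among the results that passed the threshold. Of 152 values for the genes under the alternatives, 136 stayed on the same side of the threshold, 12 lost it and 4 gained it. Of 232 for the transcripts the numbers were 209, 18 and 5, and 126 of 126 shares stayed uncalled. Slc22a7 (1.52 to 2.17) and Slc22a30 (0.55 to 0.85) passed in every setting. Slc22a18 was lost with a pseudocount of 0.1 (adjusted p = 0.0580), equal sums (0.0722) and its highest transcript alone (0.0845). ENSMUST00000148390 of Slc22a23 was lost with a pseudocount of 0.1 (adjusted p = 0.0729), the median-ratio scale factor (0.153) and without any 1 of PZH 1, 4 and 6 or Control 4, 5 and 6 (log2 fold change -0.35 to -0.29). Members called at the adjusted p numbered 3 to 5, and by 2-fold change 1 to 2 with each mouse left out. With a pseudocount of 0.1, 1317 genes and 2981 transcripts passed the 2-fold criterion, against 570 and 966, and under the median-ratio scale factor 2807 genes were higher and 2739 lower, against 1798 and 4560. The causes were not tested. Depth limits Slc22a27 (0 to 0.397 FPKM), for which 1 fragment is worth 0.0109 to 0.0173 FPKM, and the low mice of Slc22a28.

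No pairing of the groups by mouse number was seen, as deviations of same-numbered mice had r of -0.0784 to 0.0929 and 0 of 6 mice were nearest to their own number. Whether same-numbered mice shared a step of handling was not tested. With a replicate block 5982 genes were called against 6358, Slc22a28 passed (2.08, adjusted p = 0.0390), and the transcripts ENSMUST00000148671 of Slc47a1 (0.108) and ENSMUST00000148390 of Slc22a23 (0.0826) did not.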
